A study of Mus musculus with 14 samples.

Results

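Trimethylation of lysine 27 on histone H3 (H3K27me3) was compared between lineage-depleted bone marrow progenitors of mice lacking the demethylase UTX, encoded by Kdm6a (KO), and wild-type mice (WT). The comparison used 4 of the 14 samples in the series, 2 KO and 2 WT chromatin immunoprecipitation (ChIP-seq) libraries, chosen by their labels. All were C57BL/6 progenitors left after mature blood cells had been removed with a lineage depletion kit. The labels give neither the age nor the sex of the mice, nor how the allele was removed. They also do not say whether replicates came from separate mice, so p-values measure only the spread between these libraries, which may be technical. The deposited lists hold islands, the stretches of enriched signal found in each library separately, with the reads in each. Overlapping islands of the 4 libraries were joined into 23096 regions on chromosomes 1 to 19. Of these, 6324 (27.4%) held an island in every library and could be tested.

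H3K27me3 is written by Polycomb repressive complex 2 through Ezh2 or Ezh1 and marks silent genes, mainly those of developmental regulators. UTX and its paralogue Kdm6b remove it, and UTX also acts with the COMPASS-like methyltransferases and with enhancer acetylation independently of its catalytic activity. Acetylation of the same lysine (H3K27ac) marks active promoters and enhancers and cannot sit on the same residue as methylation. The series title names a non-catalytic role of UTX in the ETS and GATA programmes, which is the question these libraries address for the methyl mark.

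Upstream sequences are shown first for 5 genes with a start inside a region that passed the test described below. They are examples of promoters inside regions in which the mark differed. The mark was counted over each whole region and not over the sequences shown. Among genes with a promoter entry that lies inside such a region, these genes are the 4 with the largest rise and the 1 with a fall. Of several windows of a gene the one with most CpG was taken. Skor2 was not considered here. They are the 250 bases before the annotated start, 5′ to 3′ on the gene's strand, from RefSeq (GRCm38.p6, the assembly of mm10). Capitals mark CpG dinucleotides, which Polycomb-marked promoters of mammals are usually rich in. The regions of Tnfaip2, Tinagl1, Hif3a and Fhdc1 were higher in KO, and that of Tnrc18 was lower.
Tnfaip2 (chr12:111442411-111442660, plus strand): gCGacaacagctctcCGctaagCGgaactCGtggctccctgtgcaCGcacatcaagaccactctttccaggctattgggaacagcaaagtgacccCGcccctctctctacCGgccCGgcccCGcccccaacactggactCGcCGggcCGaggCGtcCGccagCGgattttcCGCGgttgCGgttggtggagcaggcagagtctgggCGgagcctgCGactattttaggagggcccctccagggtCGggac
Tinagl1 (chr4:130174803-130175052, minus strand): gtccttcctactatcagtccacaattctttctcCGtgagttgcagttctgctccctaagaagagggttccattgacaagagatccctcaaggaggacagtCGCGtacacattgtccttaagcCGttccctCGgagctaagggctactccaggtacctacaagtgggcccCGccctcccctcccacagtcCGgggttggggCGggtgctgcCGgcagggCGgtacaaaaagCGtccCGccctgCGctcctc
Hif3a (chr7:17062428-17062677, minus strand): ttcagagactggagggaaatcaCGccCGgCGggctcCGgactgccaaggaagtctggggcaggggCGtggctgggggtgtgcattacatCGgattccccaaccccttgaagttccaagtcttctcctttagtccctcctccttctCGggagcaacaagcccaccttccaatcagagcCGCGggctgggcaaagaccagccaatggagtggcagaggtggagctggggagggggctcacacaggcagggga
Fhdc1 (chr3:84480440-84480689, minus strand): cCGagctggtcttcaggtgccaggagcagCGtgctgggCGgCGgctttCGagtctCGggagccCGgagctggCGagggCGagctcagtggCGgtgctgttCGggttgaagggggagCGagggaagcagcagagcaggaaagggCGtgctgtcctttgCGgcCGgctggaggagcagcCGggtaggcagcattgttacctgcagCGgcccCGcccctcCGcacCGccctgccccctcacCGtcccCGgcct
Tnrc18 (chr5:142817663-142817912, minus strand): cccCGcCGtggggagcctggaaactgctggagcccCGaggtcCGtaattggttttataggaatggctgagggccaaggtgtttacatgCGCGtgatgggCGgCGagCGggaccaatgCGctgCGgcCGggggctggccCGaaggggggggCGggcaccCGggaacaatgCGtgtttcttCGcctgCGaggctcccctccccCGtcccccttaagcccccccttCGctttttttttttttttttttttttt
These windows held 21 CpG in Tnfaip2, 13 in Tinagl1, 9 in Hif3a, 22 in Fhdc1 and 20 in Tnrc18. The GATA-type letters AGATAA were found on neither strand of these 5 windows but were found in a second window of Fhdc1, at another start in the same region, and 9.99% of all 32851 promoter windows of this length hold them. Of the 5 windows, Hif3a alone held the ETS-type letters GGAAGT, and 19.7% of all windows hold them on either strand.

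The marker genes of progenitors carried the active mark: Kit, Cd34, Meis1 and Mecom had H3K27ac islands at a gene end in all 4 H3K27ac libraries. Meis1 and Mecom also carried H3K27me3 in all 4 libraries. Stromal and endothelial genes were mostly methylated, with H3K27me3 in both WT and both KO libraries at Kdr, Col1a1, Lepr and Cxcl12, and with H3K27ac at Kdr alone. Their summed H3K27ac was 10.3 and 8.98 CPM (counts scaled by each library's autosomal island reads) in WT and 4.89 and 6.22 CPM in KO, with 4 of the 5 genes at 0 in all libraries. Markers of other blood cells moved with genotype in H3K27ac. Over 4 erythroid genes (Gata1, Klf1, Epor, Alas2) it summed to 326.3 and 274.6 CPM in WT and 82.6 and 109.3 CPM in KO, with islands in both libraries at 3 and at 2 of them. Alas2 alone makes the difference between 3 and 2. Gata1 and Alas2 lie on the X chromosome, which the tests below leave out. Over 4 B cell genes (Pax5, Ebf1, Cd79a, Cd79b) it summed to 141.8 and 116.5 CPM in WT and 337.1 and 465.8 CPM in KO, with islands in both libraries at 2 and at 4. Over 5 granulocyte genes it summed to 63.1 and 51.4 CPM in WT and 113.8 and 105.7 CPM in KO, with Ly6g at 0 throughout, and over 5 T cell genes to 35.1 and 26.3 CPM against 72.2 and 49.2 CPM. Fewer cells of a type and less signal per cell cannot be told apart in bulk libraries, and the part of cell composition in the results below was not tested. Kdm6a itself had no H3K27me3 island at its ends in any library, so these lists do not check the genotype.

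Fewer islands were listed in KO. Autosomal islands numbered 17296 and 17508 in WT (17402 ± 150, mean ± SD, n = 2) and 13742 and 12214 in KO (12978 ± 1080, n = 2), a KO to WT ratio of 0.746. Both KO libraries lay below both WT libraries. An exact two-sided permutation test over the 4 libraries gave p = 0.333, the smallest value the 6 arrangements allow. Covered length was 110.0 and 84.7 Mb in WT and 69.4 and 82.0 Mb in KO, a narrower gap (ratio 0.777). With only islands of at least 50 reads, the WT counts were 14535 and 10896 and the KO counts 11303 and 10995, so the groups overlapped (exact permutation p = 1). The faintest islands listed also differed: the density below which the faintest 1% of islands lay was 13.04 and 12.2 reads per kb in WT and 17.2 and 13.6 in KO, and the part of the calling threshold in the island counts was not tested.

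The depth of autosomal island reads was 2606888 and 2276991 in WT and 2179156 and 2270671 in KO. WT replicate 1 spread its reads most widely, with 74.2% in regions found in every library, against 81.9% in WT replicate 2 and 84.2% and 86.6% in the KO libraries. Regions seen in a single library numbered 10506, had a median of 21.6 CPM and lay at a gene end in 12.3% of cases. Regions seen in all 4 had a median of 76.4 CPM and lay at a gene end in 59.5%. Islands in both WT libraries and neither KO library made up 1630 regions, and the reverse pattern 338. With islands of at least 50 reads these counts were 793 and 371.

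Island width varied within genotypes as much as between them. Islands under 2 kb, which held 2.16% of the reads in WT replicate 1 and 1.65% in KO replicate 2, held 4.71% in WT replicate 2 and 4.93% in KO replicate 1. Those of 30 kb or more, the largest Polycomb domains, held 10.2% and 8.52% of the reads in WT and 7.48% and 11.4% in KO (exact permutation p = 1). The median island was 4800 and 3600 bp wide in WT and 3800 and 5200 bp in KO. Island numbers of the 2 genotypes overlapped in every width class except 2-5 kb, with 7523 and 8486 in WT and 6407 and 4898 in KO (exact permutation p = 0.333), and read shares in every class except 5-10 kb, with 32.4% and 30.3% in WT and 33.23% and 33.21% in KO.

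**Figure D1:**
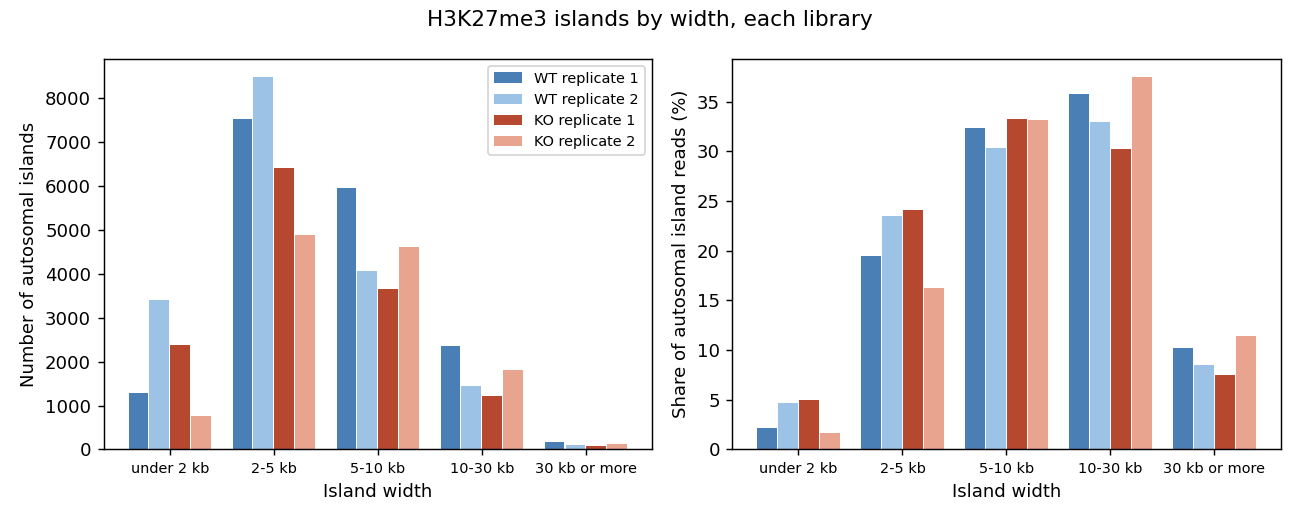
Number of autosomal H3K27me3 islands (left) and their share of island reads in percent (right) by island width, with 1 bar per library. Both KO bars are below both WT bars for the number of islands of 2-5 kb, while WT replicate 1 resembles KO replicate 2 in the shares.

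Most tested regions differed little in level relative to the island reads of their library. A change shared by all regions could not be seen, since each library was scaled to its own island reads. Regions without an island in every library were not tested. Between KO and WT, 95.3% of the tested regions lay within 2-fold, 220 were over 2-fold higher and 79 over 2-fold lower. With edgeR's quasi-likelihood test, scaled to autosomal island reads and adjusted by Benjamini-Hochberg over all tested regions at 0.05, 25 regions were higher in KO (0.395% of those tested) and 3 were lower (0.0474%). Across tested regions the median log2 ratio was 0.14, and with TMM factors, which centre the regions themselves, it was -0.002. This shift of 0.14 is contained in the H3K27me3 log2 values scaled to island reads, and not in those with TMM factors, nor in H3K27ac. Values per covered length also keep the scaling to island reads, and their median was 0.26. With TMM factors 0 regions were higher and 1 lower, and with DESeq2 16 were higher and 18 lower. Without WT replicate 1 no region passed, without WT replicate 2 only 2 higher ones did, without KO replicate 1 there were 6 higher and 5 lower, and without KO replicate 2 40 and 24.

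The largest gain was at Tnfaip2, a gene induced by tumour necrosis factor (chr12:111437801-111451800). Its region had 17.6 and 11.9 CPM in WT and 81.7 and 132.1 CPM in KO, which is 2.85 on the log2 scale (SE 0.462, edgeR adjusted p = 0.00134). Both KO libraries were several times above both WT libraries. Covered length grew with it, from 2.4 and 1.2 kb in WT to 5.8 and 14 kb in KO. The acetylated region over the same gene (chr12:111428401-111451800) fell from 180.6 and 195.4 to 124.9 and 138.7 H3K27ac CPM (-0.63 on the log2 scale, SE 0.0951, edgeR adjusted p = 0.00419).

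Other regions at gene ends passed in the same direction. Arhgef10l, a guanine nucleotide exchange factor gene (chr4:140655801-140664600), had 15.3 and 14.9 CPM in WT and 89.9 and 70.02 CPM in KO (log2 fold change 2.40, SE 0.466, edgeR adjusted p = 0.00886). One region on the same chromosome (chr4:41630601-41656200) reaches the ends of Cntfr, the ciliary neurotrophic factor receptor, Enho, the precursor of adropin, and Dnaic1, an axonemal dynein chain. It had 44.1 and 19.3 CPM in WT and 143.6 and 150.6 in KO (2.21, SE 0.383, adjusted p = 0.00229). Cmklr1, the chemerin receptor, rose from 14.6 and 15.8 to 54.1 and 66.9 CPM (1.99, edgeR adjusted p = 0.0447). Lrrc32, which presents latent TGF-beta at the cell surface, rose from 49.1 and 66.3 to 168.0 and 145.3 CPM (1.44, adjusted p = 0.0399). Both KO libraries exceeded both WT libraries in all 25 higher regions, which comes from the values tested and adds no support to the test. The same order held for 30.3% of all tested regions. Tinagl1, a matricellular protein gene (log2 fold change 1.79), Pcdh7, a protocadherin gene (1.22), and Lrig1, a restraint on growth factor receptors (0.98), passed as well.

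Sox4, a high-mobility-group factor of lymphoid and stem cells (chr13:28947801-28953400), had 16.1 and 13.6 CPM in WT and 83.5 and 37.4 CPM in KO (log2 fold change 2.02, SE 0.483, edgeR adjusted p = 0.048). Skor2, a corepressor gene, gained as much (2.02). Hif3a, a hypoxia-inducible factor subunit, rose from 34.1 and 44.4 to 114.7 and 117.6 CPM (1.57, adjusted p = 0.048). Bahcc1, whose protein binds H3K27me3, rose from 123.1 and 225.7 to 441.5 and 367.7 CPM (1.22, adjusted p = 0.011). A region inside Zbtb46, a factor of classical dendritic cells (chr2:181442001-181474200), rose from 117.4 and 155.9 to 294.6 and 381.4 CPM (1.31, SE 0.236, adjusted p = 0.00366). The regions past the 12 largest at gene ends, and those away from gene ends, were named after their values were seen. The other genes at the ends of such regions were Bicdl1, a dynein adaptor (1.60), the formin-like Fhdc1 (1.28), Nckap1, a subunit of the WAVE actin complex (1.19), and Nol4l (1.12). Of the 25 regions, 16 lay at a gene end, and of the 15 genes with promoter entries at the ends of all regions that passed (chromosome 18 not counted) 9 had a start inside the region, Bahcc1, Pcdh7, Nol4l and Lrig1 among them. The rest were inside Chchd6 or Zbtb46, or outside genes nearest to Accsl, Sdk2, Rere, Nkx2-3, Bms1, Tac4 and Tcte2. The last of these also met an IgG island, a sign of signal without a specific antibody.

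Loss of the mark passed at 3 regions. Tnrc18, a chromatin protein with a BAH domain (chr5:142810801-142827400), fell from 185.7 and 267.02 CPM in WT to 61.5 and 63.9 CPM in KO, a log2 fold change of -1.85 (SE 0.284, edgeR adjusted p = 0.000918). It was the 1 region that passed with TMM factors (adjusted p = 0.0245). Its acetylated region rose from 213.2 and 198.4 to 273.5 and 286.5 H3K27ac CPM (0.33 on the log2 scale, SE 0.0696, edgeR adjusted p = 0.0153). Slc13a5, the plasma membrane citrate transporter (chr11:72224001-72259200), fell from 239.4 and 133.5 to 80.3 and 51.1 CPM (-1.51, adjusted p = 0.0263). A region 8.01 kb from Asb1 fell from 156.5 and 138.8 to 24.3 and 73.1 CPM (-1.60, adjusted p = 0.048).

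**Figure D2:**
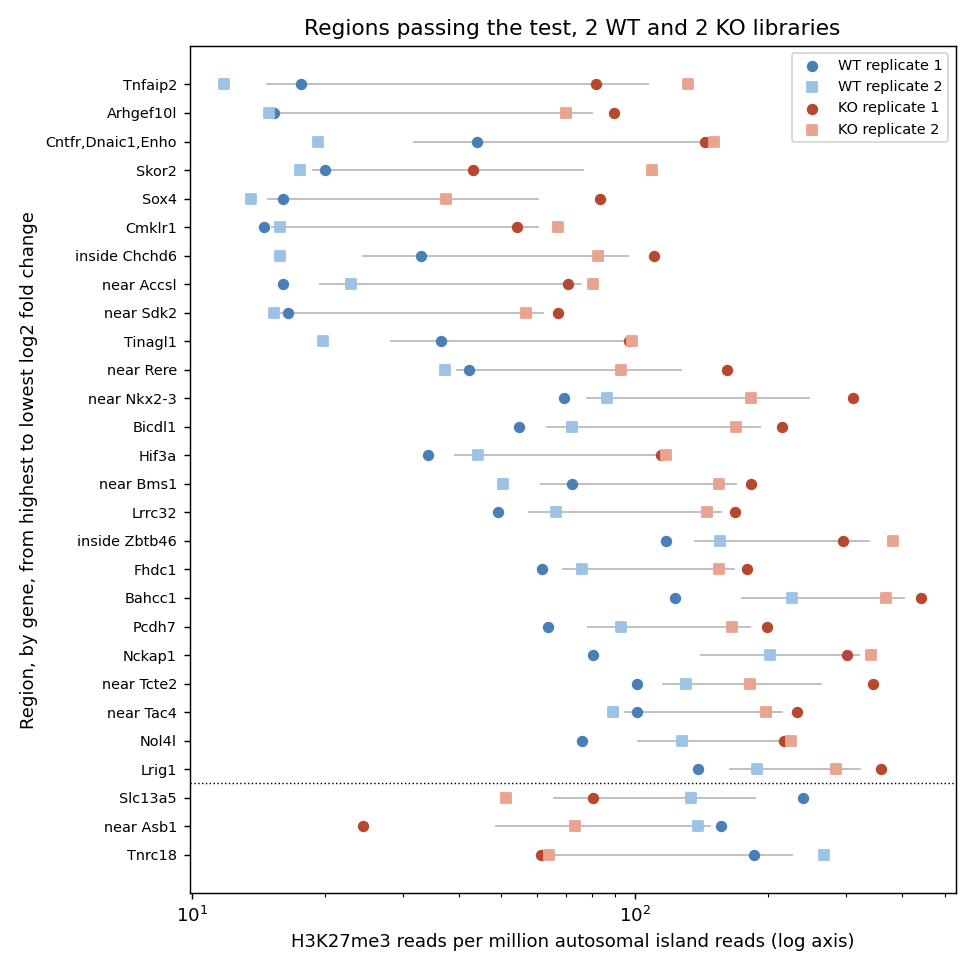
H3K27me3 of the 28 regions that passed the edgeR test, in CPM on a log axis, with 1 point per library and a grey line between the group means. The 25 regions above the dotted line are higher in both KO libraries, and the 3 below it are lower in both.

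The regions that passed differed in extent. All 25 higher regions had a longer covered length in both KO libraries than in both WT libraries, which held for 11.6% of all tested regions, and the median fold of their mean covered length was 2.37. All 3 lower regions were shorter in both KO libraries. With reads divided by covered length in the model, 3 regions were higher and 0 lower, and 0 of the 28 regions above passed. The median over all regions was 0.26. On that scale the 25 regions had a median of 0.42, and 18 lay above the median of all regions. The region of Slc13a5 turned to 0.73 and that near Asb1 to 0.23, while Tnrc18 stayed lower at -0.49. The reads counted are those inside islands, so a wider island and a denser one both raise a region's count. The lengths of the 25 and the 3 regions are thus tied to the values tested and add no support to the test.

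H3K27ac, measured in other libraries and not used to choose these regions, could be tested over 8 of the 25 regions higher in H3K27me3, and the others had no tested H3K27ac region. Of the 9 tested H3K27ac regions that overlap these 8, 8 were lower in KO and 0 higher with edgeR, against 14.2% lower and 11.8% higher among all 18319 H3K27ac regions tested. Scaled to island reads in place of TMM factors, 8 of the 9 were lower as well, and the split over all H3K27ac regions was 17.5% higher and 11.1% lower. The fall was steepest inside Zbtb46 (chr2:181458001-181466000), from 92.5 and 80.2 to 10.7 and 12.8 H3K27ac CPM (log2 fold change -2.99, SE 0.138, adjusted p = 0.000226). At Nol4l acetylation fell by 2.46 on the log2 scale, at Nckap1 by 2.03, at Pcdh7 by 1.96, at Tinagl1 by 1.92 and at the 2 acetylated regions of Bahcc1 by 1.59 and 0.64. Sox4 was the exception, at 180.3 and 160.8 CPM in WT and 158.4 and 160.1 CPM in KO (-0.21, edgeR adjusted p = 0.0824).

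H3K27ac calls were also counted over the wider set of regions over 2-fold apart in H3K27me3, most of which did not pass the test. H3K27ac regions overlapping those over 2-fold higher in H3K27me3 numbered 60, of which 27 (45.0%) were lower in KO and 1 was higher. Among 808 H3K27ac regions over H3K27me3 regions within 2-fold, 17.8% were lower and 15.3% higher. Over regions that were over 2-fold lower in H3K27me3, 9 of 13 H3K27ac regions (69.2%) were higher and 1 was lower. With the H3K27me3 groups formed without each replicate in turn, the share of lower H3K27ac regions stayed between 40.4% and 45.9%, and that of higher ones lay between 40.0% and 55.0%.

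Some genes with such opposed values are given as examples. Gp9, a subunit of the platelet von Willebrand factor receptor, had 19.2 and 23.3 H3K27me3 CPM in WT and 53.7 and 55.9 in KO (log2 fold change 1.37, edgeR adjusted p = 0.222), and its H3K27ac fell by 1.86 on the log2 scale. Slc22a23, an organic ion transporter (H3K27me3 1.08), had the largest fall in H3K27ac, -4.12. Specc1 (H3K27me3 1.42, H3K27ac -3.53), the regulatory factor gene Rfx2 (1.69 and -1.51) and the organic cation transporter gene Slc22a3 (1.55 and -1.79) followed the same pattern, and none of the 4 passed for H3K27me3. In the other direction, Jag1, a Notch ligand, had 108.6 and 137.02 H3K27me3 CPM in WT and 39.9 and 60.8 in KO (-1.28, adjusted p = 0.122) and 2.15 in H3K27ac. A region shared by Grb7, Mien1 and Ikzf3, the lymphoid factor Aiolos, had 151.1 and 132.6 CPM in WT and 47.7 and 77.5 in KO (-1.18, adjusted p = 0.124) and 1.76 in H3K27ac. These genes were chosen after their values were seen. B cell and erythroid markers moved in H3K27ac as given above, and their part in these pairs was not tested.

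**Figure D3:**
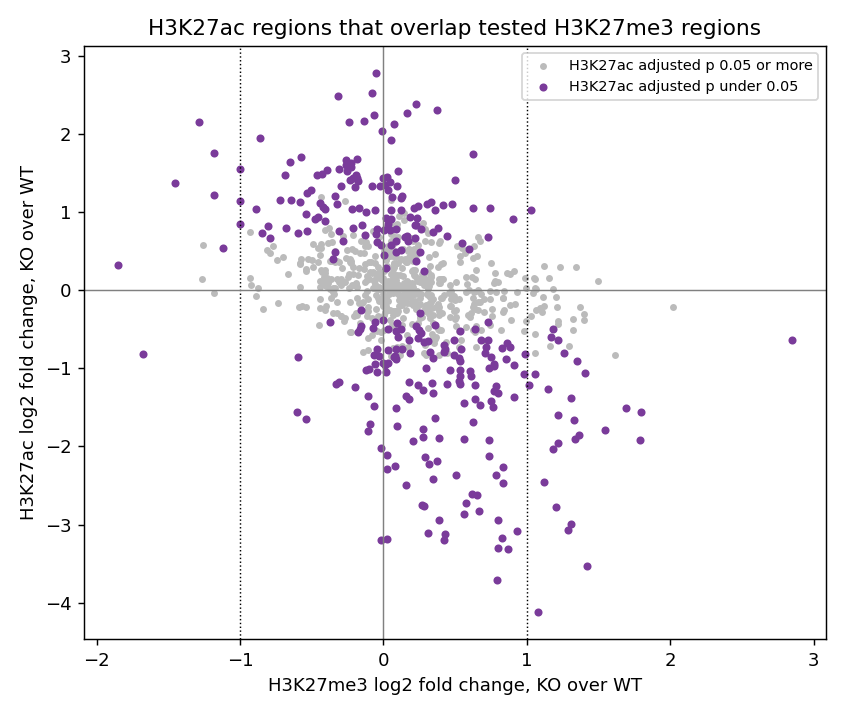
H3K27ac against H3K27me3 log2 fold change (KO over WT) for each overlap of a tested H3K27ac region with a tested H3K27me3 region, with purple points for H3K27ac changes at adjusted p under 0.05 and dotted lines at 2-fold for H3K27me3. To the right of the right-hand line most purple points lie below 0, and to the left of the left-hand line most lie above 0.

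UTX binding and acetylation in WT were frequent in the regions that passed as higher. UTX islands of both WT libraries, away from IgG islands, met 44.0% of the 25 higher regions and 8.78% of all tested regions. They also met 33.3% of the 3 lower regions. In the wider groups they met 13.6% of the 220 regions over 2-fold higher and 6.33% of the 79 over 2-fold lower. H3K27ac islands of both WT libraries met 56.0% of the 25 and 14.3% of all, and those of both KO libraries met 32.0% and 13.6%. Those of both WT libraries met 33.3% of the 3 lower regions, 35.9% of the 220 and 12.7% of the 79. Across all 555 UTX-bound regions, however, the median H3K27me3 log2 fold change was 0.15, against 0.14 in the 5769 others. Regions acetylated in both WT but not in both KO libraries (262) had a median of 0.33, and those acetylated in both KO but not in both WT libraries (216) had -0.04.

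By width, the narrowest regions stood highest. Merged regions under 2 kb had a median log2 fold change of 0.50 (270 regions, quartiles 0.28 and 0.68), those of 2-5 kb 0.22, of 5-10 kb 0.18, of 10-30 kb 0.09 and of 30 kb or more 0.09. Of the narrowest class 47.4% met an IgG island, against 3.61% of all tested regions, and without those its median was 0.43. Without KO replicate 1 the distance between the narrowest and the widest class shrank from 0.42 to 0.03, and without KO replicate 2 it was 0.71. Calls were spread over the wider classes, with 7 higher regions of 5-10 kb, 16 higher and 2 lower of 10-30 kb, and 2 higher and 1 lower of 30 kb or more. None of the 656 regions under 5 kb passed, where 0.395% of all tested regions passed as higher and 0.0474% as lower. Counts were low there, with medians of 19.6 CPM under 2 kb and 30.9 CPM at 2-5 kb, against 76.45 CPM over all. With classes by mean covered length, 5 higher regions fell in the class of 2-5 kb (1388 regions).

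By position, regions far from genes stood highest. Regions more than 200 kb from any protein-coding gene (162) had a median of 0.38, and 30.2% of them met an IgG island. Without those the median was 0.30. Regions at a gene end (3762) had 0.13, those inside a gene (1026) 0.14, and those outside genes 0.13 up to 10 kb, 0.15 at 10-50 kb and 0.20 at 50-200 kb. Without KO replicate 1 the distance between regions beyond 200 kb and those at gene ends was 0.04. Gene ends held 59.4% and 67.7% of island reads in WT and 65.7% and 68.6% in KO (exact permutation p = 0.667).

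**Figure D4:**
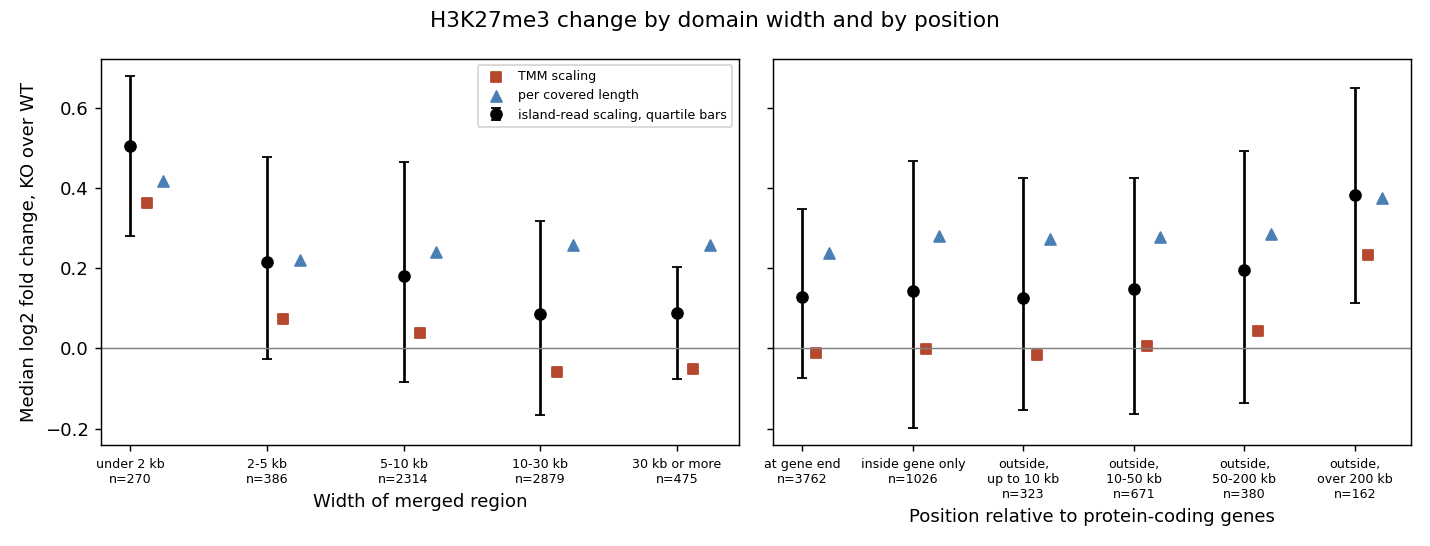
Median H3K27me3 log2 fold change (KO over WT) of tested regions by width (left) and by position relative to protein-coding genes (right), with quartile bars for scaling to island reads and the medians under TMM factors and per covered length. Regions under 2 kb (0.50) and those beyond 200 kb (0.38) stand above the other classes in all 3 versions.

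By chromosome, medians lay between 0.06 on chromosome 19 and 0.21 on chromosome 6, a range smaller than the distance between the quartiles on any of them. Chromosomes 2 and 4 held 4 higher regions each, among 559 and 504 tested. Chromosomes 5 and 11 held 3 higher and 1 lower each, among 443 and 529. The 6 autosomes with no region that passed had 178 to 411 tested regions. Over all autosomes 0.395% of tested regions were higher and 0.0474% lower, so the counts per chromosome are too small to compare.

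Polycomb domains of developmental regulators were nearly all in place. Of 39 Hox cluster genes, 38 carried an island at a gene end in all 4 libraries, as did 98 of 99 other homeobox and Pax genes, 45 of 47 Sox, Fox and T-box genes, 54 of 60 bHLH and zinc finger factors and 60 of 63 genes of the Wnt, BMP, Hedgehog and FGF pathways. In these lists no region passed in either direction. Of all tested regions 0.395% passed as higher and 0.0474% as lower, shares at which lists of this size would hold few or none. Sox4, which passed, was not among the listed Sox genes. The Hoxc cluster lay in the widest tested region (chr15:102739601-103152600, 413 kb), with 5354 and 6390 CPM in WT and 6743 and 6677 CPM in KO (log2 fold change 0.19, SE 0.226, edgeR adjusted p = 0.85). Pax2, a kidney and brain factor, had the next widest, with 2783 and 3223 CPM in WT and 3320 and 3355 in KO (0.15, SE 0.215, adjusted p = 0.869). Among the 10 widest regions the exception in size was that of Tox2, an HMG-box factor, with 868.1 and 767.2 CPM in WT and 1315 and 1158 in KO (0.60, SE 0.205, adjusted p = 0.24).

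Over the Hox clusters the KO libraries were mostly the higher ones. In 7 of 8 tested regions with Hox genes both KO libraries exceeded both WT libraries, which held for 30.3% of all tested regions, and in 0 of 8 they were both lower (10.1% of all). The median of the 8 was 0.28, 0.15 with TMM factors and 0.27 per covered length, where all regions had 0.26. The Hoxa region from Hoxa3 to Evx1 (chr6:52205401-52328600) had 1812 and 2690 CPM in WT and 2768 and 2706 CPM in KO. WT replicate 1 was the low library there and in the Hoxd and Hoxb regions. Hoxa4 had the largest difference, from 16.1 and 27.2 to 48.6 and 52.0 CPM (1.22, SE 0.455, edgeR adjusted p = 0.303). The region of Hoxb1 and Hoxb2 had 430.02 and 492.3 CPM in WT and 694.8 and 606.0 in KO (0.50, adjusted p = 0.391), and its H3K27ac islands, at 22.5 and 16.1 CPM in WT, were absent from both KO lists.

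No region of the blood gene lists passed, where 0.395% of all tested regions passed as higher and 0.0474% as lower. Of all 20665 autosomal protein-coding genes, 19.9% carried an island at a gene end in all 4 libraries. Of 27 autosomal GATA and erythroid genes, 5 (18.5%) did, as did 4 of 16 megakaryocyte (25%), 4 of 30 granulocyte and monocyte (13.3%), 3 of 21 B cell (14.3%) and 13 of 26 stem cell genes (50.0%). The median log2 fold change was 0.65 over 7 erythroid regions, 0.50 over 4 megakaryocyte and 0.59 over 4 granulocyte and monocyte regions. With TMM factors these were 0.52, 0.37 and 0.46. Per covered length they were 0.49, 0.20 and 0.37, where all regions had 0.26. The lowest megakaryocyte region, at Gp1bb, had -0.39, and the lowest granulocyte and monocyte region, at Cd14, had -0.44. Gata2, the GATA factor of stem and progenitor cells (chr6:88185601-88206200), had 180.7 and 275.4 CPM in WT and 407.5 and 421.02 CPM in KO (0.86, SE 0.223, edgeR adjusted p = 0.0756). Sptb, red cell beta-spectrin, had 140.01 and 155.5 CPM in WT and 313.0 and 214.5 in KO (0.84, adjusted p = 0.142). Rhd, a red cell membrane protein, had 0.93 and Epor, the erythropoietin receptor, 0.65. The other 3 tested regions of the list had 0.36 and -0.27 at Ank1, the red cell ankyrin, and 0.01 at Slc4a1, the anion exchanger band 3. In 4 of the 7 both KO libraries exceeded both WT libraries (30.3% of all tested regions) and in 1, at Ank1, they were both lower (10.1% of all). H3K27ac passed the edgeR test as lower in KO over Rhd (log2 fold change -3.08, adjusted p = 0.00733), Epor (-2.63, adjusted p = 0.000333), Sptb (-2.47, adjusted p = 0.00128) and Gata2 (-0.68, adjusted p = 0.0322). The erythroid markers above summed lower in H3K27ac in KO as well, and the part of erythroid cells in these values was not tested. Rhd had H3K27ac islands of 70.3 and 90.6 CPM in WT and 4.00 and 17.6 CPM in KO, and Sptb 45.6 and 54.5 against 7.37 and 12.5.

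Stem cell genes leaned higher in H3K27me3. In 10 of 14 tested regions both KO libraries exceeded both WT libraries, beside the 30.3% of all regions, and in none were they both lower. Among the 10 are the regions of Hoxb3 to Hoxb9, of Hoxa3 to Evx1 and of Gata2, which the Hox and erythroid counts above also include. The median of the 14 was 0.31, and 0.17 with TMM factors. Hlf, a stem cell bZIP factor, had 39.9 and 88.3 CPM in WT and 152.4 and 122.4 in KO (1.10, SE 0.353, edgeR adjusted p = 0.2). Meis1, a homeobox cofactor, had 98.6 and 166.9 CPM in WT and 232.2 and 192.5 in KO in its stronger region (0.68, adjusted p = 0.354), and its other region had 0.23. Mecom, the Evi1 locus, had 170.3 and 278.4 CPM in WT and 314.8 and 288.9 in KO (0.43, adjusted p = 0.583). WT replicate 1 was the lower WT library in these regions of Hlf, Meis1 and Mecom. The lowest members were Egr1, an immediate early zinc finger factor (-0.16), Thpo, encoding thrombopoietin (-0.02), and Procr, the protein C receptor (0.05).

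B cell regulators had H3K27ac islands mainly in KO, and their H3K27me3 did not pass. Pax5 had 588.1 and 793.2 H3K27me3 CPM in WT and 644.3 and 631.5 in KO (log2 fold change -0.11, SE 0.207, edgeR adjusted p = 0.9), while H3K27ac islands were absent from both WT lists there and had 67.3 and 101.4 CPM in KO. Ebf1 had 273.9 and 367.6 H3K27me3 CPM in WT and 269.8 and 267.8 in KO (-0.25, adjusted p = 0.768), with 7.52 H3K27ac CPM in WT replicate 1, no island in WT replicate 2 and 52.6 and 89.7 CPM in KO. Bach2, a repressor active in B cells, was higher in both marks in both KO libraries, with H3K27me3 from 59.1 and 37.3 to 108.3 and 88.5 CPM (1.03, adjusted p = 0.324) and H3K27ac from 37.9 and 28.5 to 178.7 and 213.1 CPM. The B cell markers summed higher in KO as well, and the part of B lineage cells in these values was not tested.

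The other lists showed no region that passed either: ETS family (median 0.15 over 6 regions), leukaemia genes (0.26 over 14), T and NK cell genes (0.24 over 11), stromal and endothelial genes (0.01 over 13), Polycomb and COMPASS genes (-0.02 over 11), ion channel and synaptic genes (0.09 over 42), imprinted genes (0.21 over 15) and cell cycle inhibitors (0.09 over 2). The shares over all tested regions were 0.395% higher and 0.0474% lower. Cdkn2a and Cdkn2b, the tumour suppressor locus under Polycomb control, had 509.4 and 852.9 CPM in WT and 739.3 and 793.6 in KO (0.17, SE 0.219, edgeR adjusted p = 0.858). Cbx2, a Polycomb repressive complex 1 subunit, had 164.6 and 169.5 CPM in WT and 283.1 and 279.2 in KO in the region it shares with Enpp7 (0.75, SE 0.227, adjusted p = 0.169), and the region it shares with Cbx8 had -0.03. Kdm6b, the paralogue of Kdm6a, had 41.4 and 43.04 CPM in WT and 47.7 and 35.2 in KO (-0.03, adjusted p = 0.991). Ezh1 had 53.7 and 37.8 in WT and 50.02 and 48.4 in KO (0.10, adjusted p = 0.971), and Ezh2 and Uty had no island. Of 22 autosomal housekeeping genes, 0 carried an island in all 4 libraries and 1 in any. Olfactory receptor genes of the Olfr family carried one in all libraries in 11 of 1104 cases (median 0.37 over 15 regions), and vomeronasal Vmn genes in 0 of 354.

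**Figure D5:**
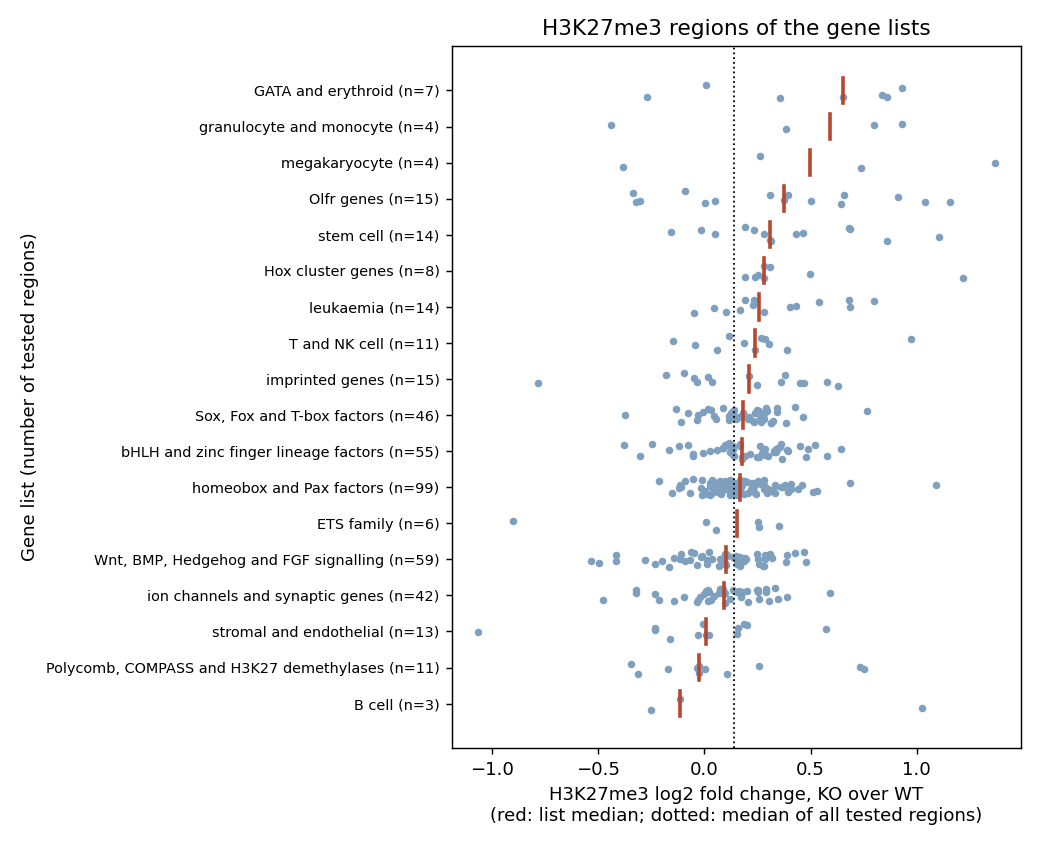
H3K27me3 log2 fold change (KO over WT) of each tested region at the ends of list genes, with 1 point per region, a red bar for the median of each list with at least 3 regions and a dotted line for the median of all tested regions (0.14). No point passed the test, which 0.395% of all tested regions passed as higher and 0.0474% as lower. The erythroid median (0.65) is the highest of the lists.

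Genes with an island at an end in both WT libraries and neither KO library numbered 367, and 74 showed the reverse. These are 1.78% and 0.358% of the 20665 autosomal protein-coding genes. Fewer islands were listed in KO, as given above, and the part of that in these counts was not tested. Among the 5 strongest in each direction, the islands at the ends of Zfp511, Zc3h3, Hadha, Nfatc3 and Snf8 in WT, and at Bsg, Zfp804a and Arhgef10l in KO, belong to regions with an island in all 4 libraries. At Zfp511 that region, shared with the homeobox gene Msx3, had 423.1 and 531.8 CPM in WT and 475.4 and 509.1 in KO (log2 fold change 0.04, edgeR adjusted p = 0.976). Over all such genes, 46 of 367 (12.5%) and 15 of 74 (20.3%) lay at a region with an island in all 4 libraries, and 283 and 48 at regions of 2 libraries. The other two in KO, Mrpl23 and Med6, lay in regions of 3 libraries. That of Mrpl23 had 89.5 and 70.9 CPM in KO and 41.3 in WT replicate 2, and that of Med6 had 50.5 and 92.04 CPM in KO and 67.2 in WT replicate 2, which lies between the KO libraries.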

How the data were processed

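H3K27me3 ChIP-seq of 2 WT and 2 KO libraries was compared; H3K27ac (2 and 2), UTX (2 WT) and 1 IgG library labelled as a BCOR control served as further readouts. Per the submitters' processing notes, SICER and mm10 were used; version, settings, aligner and controls are not given in the sources used here. The deposited files hold whole-number counts of reads per island, called by the authors per library, on a 200 bp grid. The inputs and another IgG sample were not used here.

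Islands sharing a base were joined and their counts summed; where a library lacks an island, its reads in the region are unknown. edgeR 4.0.16 (glmQLFit, glmQLFTest, two-sided, R 4.3.3) was run on autosomal regions with an island in all 4 libraries, with autosomal island reads as library size and no factors; SE is the log2 fold change over the root of F. The test was also run on counts simulated from the means and dispersion of these data. Gene ends are 2 kb around either end of RefSeq protein-coding genes (GRCm38.p6, no strand). H3K27ac was tested alike with TMM factors; that test was added after seeing the data. DESeq2 1.42.0 and other alternatives are in the closing section. CPM is used in its usual meaning, with autosomal island reads as the library total.

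Named genes were list members (19 lists), up to 12 called gene-end genes per direction, the 10 widest and 10 strongest regions and the 5 strongest presence changes; genes outside this rule are said to be chosen after seeing values. Members and lists were chosen with earlier results of these data known. Of the autosomal genes marked in all 4 libraries, 75.0% had a promoter entry, so a comparison of promoter CpG content is void. A marker gene in each of the B cell and erythroid lists is not reported here, and the summed marker levels leave it out.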

Additional observations from a re-analysis of the deposited data

How the results depend on the processing

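The counts of regions called by the test depended on the setting. Higher and lower calls were 25 and 3 as reported, 0 and 1 with TMM factors, 8 and 2 with library sizes over all chromosomes, 16 and 18 with DESeq2, 0 and 0 with islands required in at least 2 libraries, 98 and 133 with no filter, 23 and 5 with at least 50 reads in every library, 3 and 0 per covered length, 7 and 2 with islands within 1 kb merged, 8 and 2 without regions meeting an IgG island, and 34 and 8 with the replicate number as a block, where the numbers were not found to pair the libraries (correlation of the replicate differences -0.06). More regions than in the reported fit were tested both with islands in at least 2 libraries and with no filter. At an unadjusted edgeR p under 0.05 the reported fit had 587 regions (9.28%). Leaving out 1 library gave 0 to 40 higher and 0 to 24 lower calls, the lone library being assumed to vary like the other group. No region that passed changed sign in these settings, except per covered length, where the Cntfr region turned to -0.0199, Bicdl1 to -0.35, Slc13a5 to 0.73 and Asb1 to 0.23. The cause of these changes was not tested, apart from the construction of each setting.

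KO minus WT islands numbered -4424 and lay between -5188 and -1566 over the settings run. The difference in median width, 300 bp, turned to -200 bp with islands of at least 50 reads and -700 bp with equal island numbers, and lay between -400 and 1000 bp without 1 library. The median of regions under 2 kb minus that of 30 kb or more was 0.42 and lay between 0.027 and 0.71 without 1 library. The range of chromosome medians, 0.145, was 0.0737 per covered length and 0.135 to 0.198 without 1 library. Regions in both WT and no KO libraries fell from 1630 to 793 with islands of at least 50 reads. The share of higher H3K27ac regions where H3K27me3 was over 2-fold lower lay between 40.0 and 55.0% without 1 H3K27me3 library. The median SE of a region's log2 fold change was 0.38, and the part of read depth in it was not tested.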

Other observations

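The X chromosome, left out of the tests because it carries Kdm6a and the sex of the mice is not labelled, held 4.96% and 7.26% of H3K27me3 island reads in WT and 7.14% and 9.41% in KO (exact permutation p = 0.667). Its islands numbered 1543 and 2892 in WT and 1990 and 2444 in KO (exact permutation p = 1), so neither measure separated the genotypes.

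The strongest region away from gene ends lay at the start of chromosome 9 (chr9:3000001-3038400), with 7305 and 7531 CPM in WT and 11216 and 10136 CPM in KO (log2 fold change 0.53, SE 0.232, edgeR adjusted p = 0.44). It met an IgG island, as did chr14:19415401-19419800, with 2252 and 2421 CPM in WT and 3013 and 2812 in KO (0.32). In both, each KO library exceeded each WT library. Regions meeting an IgG island held 3.54% and 3.79% of autosomal island reads in WT and 4.69% and 4.08% in KO (exact permutation p = 0.333, the smallest the design allows), and their median log2 fold change was 0.39 over 228 regions against 0.13 over the 6096 others.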
